A study of Mus musculus with 28 samples.

Results

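The lectin receptor gene complex is a stretch of mouse chromosome 6 that holds the Clec4 genes, the Klrb1, Clec2, Clec12, Clec1, Clec9a, Clec7a and Olr1 genes, and the Klrd1, Klrk1, Klrc and Klra genes, with blocks of unrelated genes between them. Its contacts were taken as every listed pair of HindIII fragments with at least 1 fragment midpoint on chromosome 6 between 122.5 and 130.5 Mb of mm10 (GRCm38). This gave 2825 distinct pairs of the 273644 in the 4 lists, and 118 of the 18175 promoter-bearing capture fragments (baits) lay in the window. Of these baits, 30 held a transcription start site of a Clec, Klr, Cd69 or Olr1 gene.

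Promoter capture Hi-C, which enriches ligation products of chromatin in contact for those that hold a gene promoter, and RNA-seq were performed on C10 cells. C10 is a clonal mouse Pre-B cell line derived from HAFTL cells, and every group carried the same transgene, rat C/EBPα fused to the hormone-binding domain of the estrogen receptor (C/EBPαER). The 4 groups were uninduced cells (0h) and cells given β-estradiol with IL-3 and CSF-1 for 1h, 12h or 48h, over which the line converts to macrophages. The contact lists hold 2 replicates merged at each time, so a count of contacts has no replicate error and no difference between times was tested. The expression table holds 3 libraries per time. All groups come from 1 line, so spread between libraries is spread between cultures of that line.

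C-type lectin receptors bind sugars and other ligands on microbes and on dying or stressed cells. Genes of the Clec4 group and Clec7a, which encodes Dectin-1, the receptor for fungal beta-glucan, serve macrophages and other myeloid cells, whereas most Klr genes encode receptors of natural killer cells. C/EBPα is a transcription factor of myeloid cells whose binding motif is built of a pair of TTGC-type arms.

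Sequences are shown for the ends of the contacts described most: 3 lectin promoters, and fragments contacted by the Clec7a, Gm5316, Cd69 and Usp5/Cdca3 baits. Capitals mark each match to TTGCNNAA or to its reverse complement TTNNGCAA, a C/EBP-type pattern searched on both strands. Promoters are the 250 bases before the RefSeq start, in the direction of transcription (RefSeq, GRCm38.p6): Clec7a at chr6:129472780-129473029 (minus strand), Clec4d at chr6:123261857-123262106 (plus strand) and Clec4e at chr6:123289872-123290121 (minus strand), all between genes.
Clec7a promoter: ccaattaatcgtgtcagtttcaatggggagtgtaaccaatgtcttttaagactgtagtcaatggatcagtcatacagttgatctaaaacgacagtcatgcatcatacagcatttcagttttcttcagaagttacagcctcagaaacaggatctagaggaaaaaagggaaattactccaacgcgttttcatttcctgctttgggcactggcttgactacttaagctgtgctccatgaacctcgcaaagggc
Clec4d promoter: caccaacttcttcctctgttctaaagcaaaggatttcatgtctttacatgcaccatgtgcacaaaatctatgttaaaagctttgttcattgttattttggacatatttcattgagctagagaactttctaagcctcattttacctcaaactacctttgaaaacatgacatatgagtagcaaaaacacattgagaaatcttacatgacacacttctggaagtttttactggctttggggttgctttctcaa
Clec4e promoter: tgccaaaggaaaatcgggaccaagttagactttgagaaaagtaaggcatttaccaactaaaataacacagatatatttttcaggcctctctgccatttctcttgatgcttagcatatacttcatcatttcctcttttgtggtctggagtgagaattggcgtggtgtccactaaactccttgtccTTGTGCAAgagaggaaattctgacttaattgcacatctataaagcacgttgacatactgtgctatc
The Clec4e promoter held TTGTGCAA 66 bases before the start, and those of Clec7a and Clec4d held no match in these bases. The Clec12a promoter, not printed, held TTGCGCAA 140 bases before the start. This start lies in no bait, so the match is not part of the Clec12a bait described below. Over all genes, 2582 of 27025 promoters (9.55%) held a match, and of the window 20 of 136 (14.7%).
The contacted fragments are given on the plus strand. The shortest partner of the Clec7a bait in all 4 lists is a whole fragment of 273 bases, chr6:129399950-129400222, with a coding exon of Clec1b. The others are 128 bases around the only match in the fragment: between genes at chr6:129388259-129388386 (the Clec7a partner of highest 0h score), in an intron of Clec4a4 at chr6:123008130-123008257 (the Gm5316 partner of highest 48h value that is no bait), between genes at chr6:128842254-128842381, in a fragment that also overlaps Gm44066 (the Cd69 partner of highest 0h score), and in an intron of Lpar5 at chr6:125073845-125073972 (the Usp5/Cdca3 partner of highest 0h score among those not listed at 48h).
Clec1b exon fragment: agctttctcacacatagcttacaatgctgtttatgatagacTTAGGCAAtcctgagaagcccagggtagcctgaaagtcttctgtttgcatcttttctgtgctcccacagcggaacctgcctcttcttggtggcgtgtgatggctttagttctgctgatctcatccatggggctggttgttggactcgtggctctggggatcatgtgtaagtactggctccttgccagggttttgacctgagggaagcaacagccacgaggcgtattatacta
Clec7a partner: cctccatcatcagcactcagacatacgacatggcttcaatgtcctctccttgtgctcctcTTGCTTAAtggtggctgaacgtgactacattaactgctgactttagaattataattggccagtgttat
Gm5316 partner: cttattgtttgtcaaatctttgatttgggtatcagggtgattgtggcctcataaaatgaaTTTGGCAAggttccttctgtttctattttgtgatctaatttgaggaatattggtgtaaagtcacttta
Cd69 partner: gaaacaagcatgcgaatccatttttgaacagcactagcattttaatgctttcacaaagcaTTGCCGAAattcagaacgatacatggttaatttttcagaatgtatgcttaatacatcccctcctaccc
Lpar5 partner: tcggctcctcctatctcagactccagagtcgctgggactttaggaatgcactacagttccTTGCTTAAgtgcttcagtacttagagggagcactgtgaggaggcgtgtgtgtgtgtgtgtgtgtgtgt

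The window held fewer contacts late in the conversion than before it. There were 1689, 1734, 1307 and 1347 contacts in the 0h, 1h, 12h and 48h lists, so the 48h list had 79.8% of the 0h number. Over the same times the whole lists held 138769, 137836, 131598 and 144072 pairs, and the rest of chromosome 6 had 106% of its 0h number at 48h. The window made up 1.22% of all pairs at 0h (95% Wilson interval 1.16 to 1.28) and 0.935% at 48h (0.886 to 0.986). Intervals cover counting error only. Contacts spanned a median of 144 kb at 0h and 143 kb at 48h, and most joined fragments that both lay in the window (1528 at 0h and 1262 at 48h).

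Most of the missing contacts had belonged to a single block, and the lectin and Klr baits together had more. The Ptpn6 to Vwf block, which holds no lectin gene, had 876, 914, 568 and 415 contacts at 0h, 1h, 12h and 48h, or 51.9% of the window's contacts at 0h and 30.8% at 48h. Without it the window held 813, 820, 739 and 932. Contacts of window fragments with baits outside the window also numbered fewer, at 101, 82, 53 and 48. The 30 lectin and Klr baits had 355, 385, 341 and 428, and made up 31.8% of the window's contacts at 48h. Of these 30 baits 17 had more contacts at 48h than at 0h and 9 had fewer, where over all 18175 baits 43.3% had more and 40.1% had fewer.

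**Figure D1:**
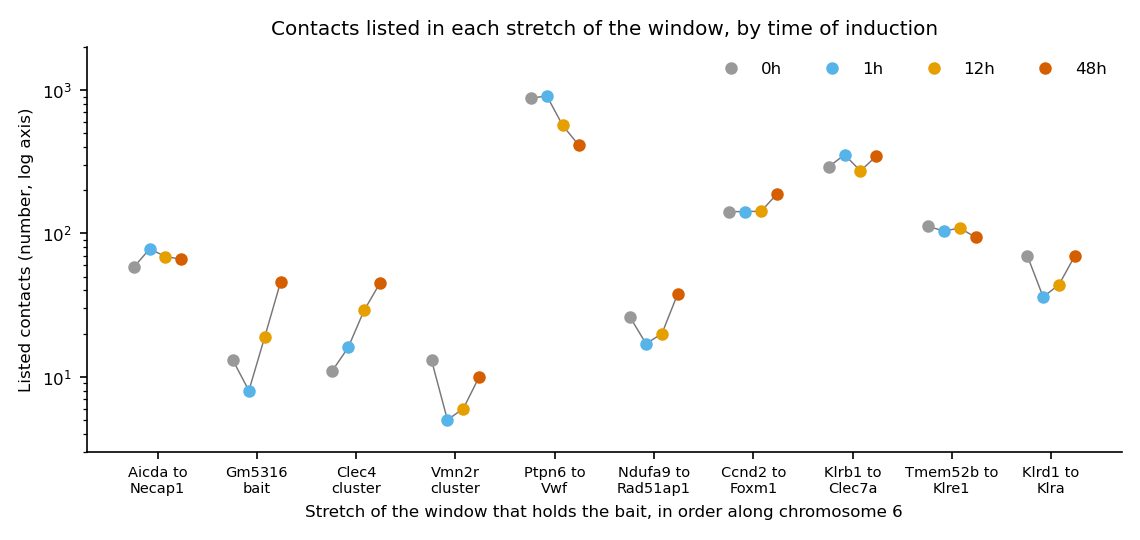
Number of contacts listed (log axis) in 10 stretches of the window, ordered along chromosome 6 and set by the position of the bait, at 0h (grey), 1h (blue), 12h (yellow) and 48h (orange); each point is 1 merged list and lines join the 4 times of a stretch. The Gm5316 and Clec4 stretches reach 46 and 45 contacts at 48h, while the Ptpn6 to Vwf stretch goes from 876 to 415.

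Of the 1689 contacts at 0h, 66.6% were also in the 1h list, 54.9% in the 12h list and 51.2% in the 48h list (95% interval 48.8 to 53.6), while over all 0h pairs 42.4% were missing from the 1h list and 46.8% from the 12h list. Of the 1h contacts 64.9% were in the 0h list, and over all 1h pairs 42.0% were not. The share not listed at 48h was 824 of 1689, and over all 0h pairs it was 44.1%. Of the 48h contacts 35.8% were not in the 0h list, against 46.2% over all 48h pairs. Stretches differed in both shares. The Ccnd2 to Foxm1 stretch kept 80.3% of its 0h contacts at 48h (73.0 to 86.0), Tmem52b to Klre1 71.4% (62.5 to 79.0), Klrb1 to Clec7a 68.8% (63.3 to 73.9), Klrd1 to Klra 48.6%, and Ptpn6 to Vwf 40.9% (37.7 to 44.2). Contacts absent from the 0h list made up 84.4% of those at 48h in the Clec4 cluster (71.2 to 92.2) and 80.4% at the Gm5316 bait (66.8 to 89.3), but 13.7% in the Ptpn6 to Vwf block (10.8 to 17.4). A pair missing from a list was not shown to be without contact.

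**Figure D2:**
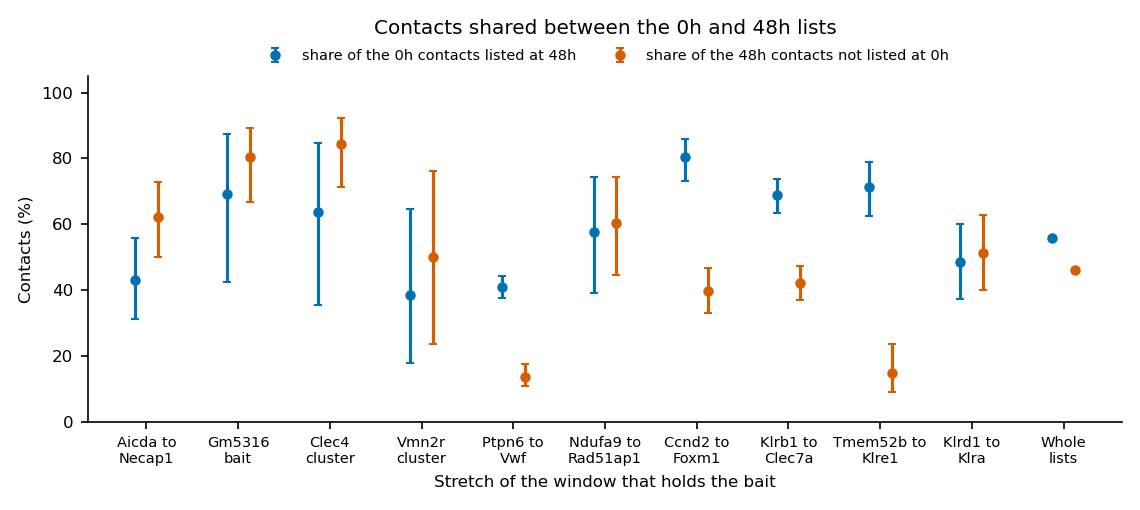
Share of the 0h contacts that were listed at 48h (blue) and of the 48h contacts that were not listed at 0h (orange), in percent, for 10 stretches of the window and for the whole lists. Bars are 95% Wilson intervals and cover counting error only. Those of the whole lists are narrow (55.6 to 56.2 and 45.9 to 46.4). The Clec4 and Gm5316 stretches stand highest for contacts not listed at 0h, with 84.4% and 80.4%, and the Ptpn6 to Vwf block lowest with 13.7%.

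At the Clec4 end of the complex, contacts accumulated from 12h. The Clec4 genes encode myeloid receptors, among them Clec4n (Dectin-2), Clec4d (MCL) and Clec4e (Mincle). Baits in the cluster had 11, 16, 29 and 45 contacts in the 0h, 1h, 12h and 48h lists, and 39 of the 62 distinct contacts (62.9%) were listed at 12h or 48h but not before, where over all pairs this share was 28.1%. The Clec4d bait had 2, 6, 7 and 15 contacts, the Clec4a1 bait 3, 3, 8 and 12, the Clec4n bait 3, 6, 11 and 10, and the Clec4b2 bait 2, 2, 2 and 7. None of the 7 cluster baits had fewer contacts at 48h than at 0h, and Clec4a4 had 3 at both. The Clec4e bait, just beyond, had 0, 0, 2 and 3 contacts. These counts are small, and near-identical Clec4 copies can split or lose reads in mapping, so counts of single baits of this family are uncertain.

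The largest gain on this side was at the bait of Gm5316, a transcribed pseudogene between Necap1 and Clec4a1. It had 13, 8, 19 and 46 contacts in the 0h, 1h, 12h and 48h lists, and 43 of those 46 reached into the Clec4 cluster and 2 into the stretch just beyond it that holds Clec4e. Before induction none of its contacts lay within 100 kb, 4 lay at 100 to 300 kb and 9 beyond, and in the 48h list these numbers were 9, 17 and 20. The Gm5316 contact with the Clec4a1 bait was listed neither at 0h nor at 1h and had values of 32 at 12h and 66 at 48h. Its contact with the Clec4a4 intron printed above scored 6.04 at 0h, was not listed at 1h, and had values of 21 and 61 later. Its contact with the Clec4d bait, 365 kb away, scored 12.55 at 0h and had values of 15, 14 and 29 afterwards. Values after induction are whole numbers, taken here as read pairs, while the 0h list holds scores, so 0h is not set against the later times by value.

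The neighbouring Necap1 bait (Necap1 encodes an adaptor of clathrin-mediated endocytosis) had 13, 26, 19 and 33 contacts. Of these, 0, 3, 5 and 10 reached the Clec4 cluster or the Clec4e stretch. The baits from Slc2a3 to Gm5316 together had 11, 11, 32 and 64 contacts with these stretches. The contact of C3ar1, the receptor gene for complement fragment C3a, with the Necap1 bait scored 6.47 at 0h, was not listed at 1h, and had values of 32 at 12h and 128 at 48h. In the other direction, the bait of Apobec1 and Gdf3 had 18, 11, 7 and 3 contacts, and 17 of its 18 contacts at 0h were not listed at 48h.

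In the Klrb1 to Clec7a stretch, which had 292, 354, 273 and 347 contacts, the Clec7a bait gained the most contacts from 0h to 48h. It had 26, 39, 38 and 60 contacts in the 0h, 1h, 12h and 48h lists. Of its 26 contacts at 0h, 25 were still listed at 48h, and 35 of the 60 were not in the 0h list. Those within 100 kb numbered 24, 27, 30 and 43, and those at 100 to 300 kb 0, 8, 5 and 14. At 48h 45 of the 60 lay on the side of Clec9a, Clec1b and Clec12b, as the plot of values by distance shows.

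The contact of Clec7a with the fragment between Clec12b and Clec1b printed above, 83.5 kb from the Clec7a bait, scored 15.91 at 0h and had values of 38, 47 and 86 (1h, 12h and 48h). After division by the median ratio of all pairs in both lists, its 48h value was 2.56 times its 1h value. The same fragment met the Tmem52b bait with a score of 31.81 and values of 66, 61 and 104, a scaled ratio of 1.79. The Clec7a contact with the Clec1b exon fragment scored 6.24 and had values of 32, 28 and 47. Over the 33 Clec7a contacts listed at both 1h and 48h, the median scaled ratio was 1.47 and 24 were above 1. The same median was 1.54 over 20 contacts of Clec1b, 1.42 over 43 of Tmem52b and 0.971 over 30 of Olr1, the gene of the oxidised-LDL receptor LOX-1. Several of these baits contact each other, so the values are not independent.

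**Figure D3:**
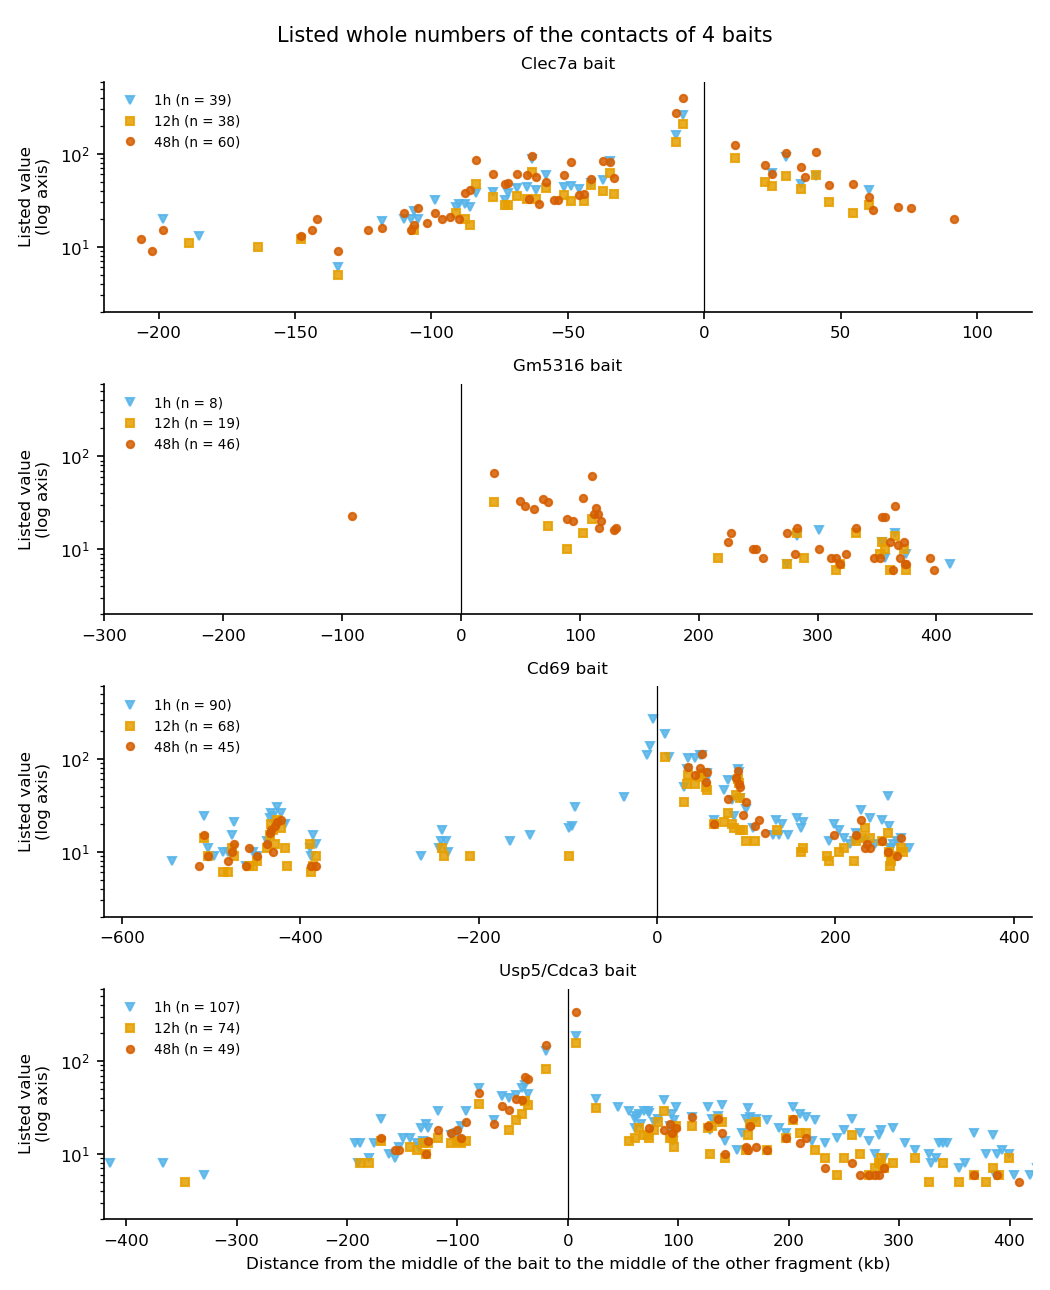
Listed whole number (log axis) of each contact of the Clec7a, Gm5316, Cd69 and Usp5/Cdca3 baits against the signed distance in kb from the middle of the bait to the middle of the other fragment, at 1h (blue triangles), 12h (yellow squares) and 48h (orange circles); n counts all contacts of the bait, and those beyond the axis are not drawn. For Clec7a there are more points at 48h than at 1h (60 against 39), while for Cd69 and Usp5/Cdca3 there are fewer 48h than 1h points (45 against 90, and 49 against 107).

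Of the 20 baits of this stretch, 11 had more contacts at 48h than at 0h, 4 had fewer and 5 the same number. Klrb1f had 17, 27, 15 and 26 contacts, Klrb1c 6, 19, 3 and 11, Gm26160 5, 12, 10 and 12, Clec12a 6, 8, 6 and 9, and Clec2i 3, 11, 4 and 6, so some of these baits were already high at 1h. Cd69, an early activation antigen of lymphocytes, had 56, 90, 68 and 45 contacts, the most at 1h. Its contacts at 100 to 300 kb numbered 14, 37, 24 and 13. Its contact of highest 0h score (29.79), with the fragment 432 kb away printed above, had values of 26, 20 and 17 at 1h, 12h and 48h. Its contact with the bait of Gabarapl1, an autophagy gene, scored 13.01 and had values of 40, 16 and 10, a scaled 48h to 1h ratio of 0.283. The Clec1b and Tmem52b baits stayed in contact at every time, with a score of 34.09 and values of 36, 38 and 62. Clec9a had 35, 32, 34 and 36 contacts, Olr1 37, 43, 44 and 44, Clec12b 26, 18, 14 and 23, and Clec2d 11, 14, 8 and 8.

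In value, 41 of the 836 window contacts listed at both 1h and 48h were at least 2-fold higher at 48h after scaling and 12 were at least 2-fold lower, or 4.90% and 1.44%, where over all such pairs 3.38% and 2.06% were. Without scaling the numbers were 22 higher and 39 lower. Of the 41, 9 lay in the Ptpn6 to Vwf block, 8 in the Klrb1 to Clec7a stretch, 5 in Tmem52b to Klre1 and 4 at Gm5316, where 7 contacts could be compared. Of the 12 lower contacts, 10 lay in the Ptpn6 to Vwf block. Against 12h, 15 of 813 contacts were higher at 48h and 12 lower (60 and 3 without scaling), beside 1.34% and 1.18% of all pairs. Between 1h and 12h none of 957 was higher and 3 were lower, beside 0.463% and 0.452%. A 2-fold ratio is a rule of size, since the merged lists allow no test.

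At the upper end of the window, the Klrd1 to Klra stretch as a whole had no more contacts at 48h than at 0h. In value, 2 of its 22 contacts listed at both 1h and 48h were at least 2-fold higher at 48h after scaling and none lower. That is 9.09%, beside 3.38% of all such pairs, and the median scaled ratio was 1.15. Both of the higher contacts were contacts of the Klra17 bait, so this share does not describe the stretch. Baits of the Klrd1 to Klra stretch had 70, 36, 44 and 70 contacts, and 48.6% of those at 0h were listed at 48h. The Klra17 bait (Klra genes encode Ly49 receptors) had 21, 12, 7 and 22 contacts. Its contact with the Klra1 bait, 504 kb away, had the highest score of the stretch, 35.09, and values of 7, 10 and 18, a scaled 48h to 1h ratio of 2.91. Over 10 Klra17 contacts in both lists the median scaled ratio was 1.45. The Klra1 bait had 4, 1, 3 and 8 contacts and the Gm17631 bait 1, 1, 0 and 5. The Klrk1 bait (NKG2D) had 15, 6, 9 and 13 contacts, Klrd1 (CD94) 10, 10, 14 and 9, and Klri2 9, 2, 3 and 4. Klra and Klr copies are alike in sequence, and the limit on mapping given for the Clec4 genes holds here too.

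Contacts over more than 1 Mb were common here and grew fewer. They were 8.68% of the window's contacts on the chromosome at 0h and 5.65% at 48h, where over all pairs the shares were 2.05% and 1.20%. Nearly all of them reached a stretch beyond the window that holds Klra2, Magohb, Styk1 and Ybx3, chosen for description after its values were seen. That stretch had 145, 119, 79 and 76 contacts with the window, at a median of 1790 kb at 0h. Of the 145 at 0h, 53 (36.6%) were listed at 48h. Over 0h pairs of every distance that share was 55.9%, and the share over all pairs beyond 1 Mb is not given. Of these contacts, 31, 29, 8 and 4 came from the Klrb1 to Clec7a stretch, 47, 43, 30 and 33 from Tmem52b to Klre1, and 66, 47, 41 and 39 from Klrd1 to Klra. The highest score at 0h joined the Klre1 and Styk1 baits, 1772 kb apart, at 33.70, with values of 10, 8 and 12 afterwards.

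The Ptpn6 to Vwf block is a gene-dense run that holds no lectin or Klr bait. Of its 38 baits 34 had fewer contacts at 48h than at 0h, 3 had more and 1 the same number. Over the lists as a whole, of the 2498 baits with at least 20 contacts at 0h, 65.3% had fewer at 48h, and 17.2% had at most 1 for every 2. In the block all 22 such baits had fewer, and 14 of the 22 had at most 1 for every 2. The median bait of the block had 24.5 contacts at 0h and 11.5 at 48h. The distance of its contacts was also shorter later, with medians of 118, 119, 89.5 and 92.1 kb.

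The bait of Usp5 and Cdca3 (Usp5 encodes a deubiquitinase, Cdca3 a trigger of mitotic entry) had the most contacts of any bait in the window at 0h, 1h and 12h, but not at 48h. It had 103, 107, 74 and 49 in the 0h, 1h, 12h and 48h lists, and all 49 were listed at 0h. Those beyond 300 kb numbered 23, 24, 10 and 3. Gnb3 next to it had 55, 62, 33 and 13, also with none at 48h that was absent at 0h. The bait shared by Chd4, a chromatin remodeller, and Nop2, a ribosomal RNA methyltransferase, had 59, 36, 24 and 12. Zfp384 with Ing4 had 88, 79, 67 and 54, and Atn1 had 59, 69, 52 and 48.

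Some contacts of the block were listed at every time. The Usp5/Cdca3 and Zfp384/Ing4 baits, 204 kb apart, had a score of 34.38 and values of 32, 23 and 24. Usp5/Cdca3 and Gnb3, 7.15 kb apart, had values of 186, 157 and 337, a scaled ratio of 2.05. Others did not. The Lpar5 intron fragment printed above met 15, 14, 7 and 1 baits in the 0h, 1h, 12h and 48h lists. Its contact with Usp5/Cdca3, 244 kb away, scored 24.75 and had values of 15 and 6 before it was no longer listed. Over the 48 Usp5/Cdca3 contacts in both lists, the median scaled 48h to 1h ratio was 0.822, with 34 below 1. This did not hold for the whole block, where the median over 347 contacts was 0.971. Single baits differed, and the median over 18 contacts of the Mlf2 bait was 1.64.

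**Figure D4:**
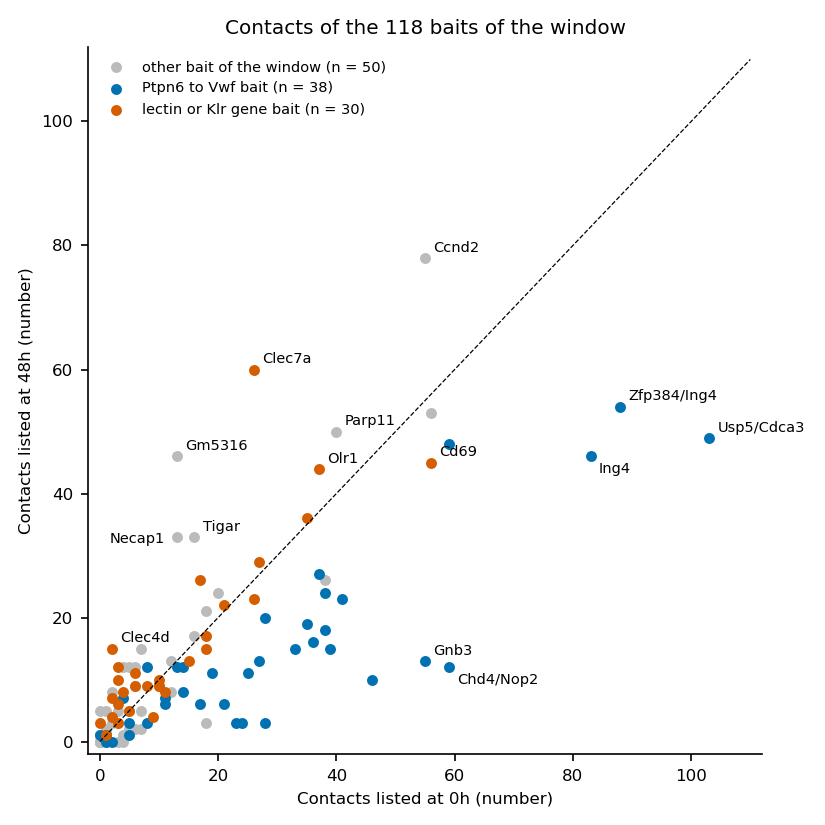
Contacts listed at 0h (horizontal axis) and at 48h (vertical axis) for each of the 118 baits of the window, with lectin and Klr gene baits in orange, Ptpn6 to Vwf baits in blue and the others in grey; the dashed line marks equal numbers. Blue points lie below the line for 34 of 38 baits, and the Clec7a, Gm5316 and Ccnd2 baits lie above it with 60, 46 and 78 contacts at 48h.

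Between the block and the lectin genes, the Ccnd2 to Foxm1 stretch gained contacts. It had 142, 142, 143 and 189. The bait of Ccnd2, which encodes the G1 cyclin D2, had 55, 64, 71 and 78 contacts, and all 55 at 0h were listed at 48h. Within 100 kb of it there were 6, 11, 16 and 20. Its contact with the bait of Parp11, 298 kb away, scored 34.73 and had values of 67, 67 and 96. The Parp11 bait had 40, 35, 29 and 50 contacts, and that of Tigar 16, 17, 29 and 33. Foxm1, a driver of mitotic gene expression, had 6, 6, 3 and 2 at its own bait.

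Pairs with another chromosome were few, with 7 at 0h and 3 at each later time. The highest score, 26.56, joined a bait on chromosome 7 to a fragment between Klrb1-ps1 and Clec2d, with a value of 4 at 1h and no listing after. A bait on chromosome 10 met a pair of adjacent fragments in 9330102E08Rik, with scores of 14.71 and 14.35 and values of 2 each at 48h.

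Expression was measured in 12 libraries, and among the 328 window genes measured, 94 had a mean of at least 0.1 TPM and were tested, with 163 listed at 0 in every library. The summed level of 7 macrophage markers (Csf1r, Itgam, Fcgr1, Cd14, Lyz2, Msr1 and Ctsc) was 10.0 to 11.1 TPM at 0h and 505 to 603 TPM at 48h. Of 5 natural killer cell markers 4 were at 0 throughout and the sum never passed 0.04 TPM. Sums over 4 T cell markers stayed at or under 0.58 TPM, and those over 4 neutrophil markers at or under 2.87 TPM, with Mpo at 0. Erythroid and fibroblast markers were at 0. In such bulk libraries, fewer cells of a type and less RNA per cell cannot be told apart.

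At 48h 19 of the 94 genes rose and 22 fell (20.2% and 23.4%) by limma at an adjusted p under 0.05, where over all 16415 genes 15.9% rose and 27.2% fell. At 1h 17 rose and 2 fell, beside 24.1% and 1.41%, and at 12h 30 rose and 9 fell, beside 22.3% and 7.82%. The balance depended on scaling. With median-of-ratios size factors, 31 rose and 17 fell at 48h, 1 rose and 8 fell at 1h, and 22 rose and 15 fell at 12h. Over all genes the same scaling gave 24.5% higher and 22.0% lower at 48h, 5.41% and 4.92% at 1h, and 2626 higher and 2375 lower of the 16415 at 12h. The median log2 change of all genes at 1h, 12h and 48h was 0.59, 0.34 and -0.18 before this scaling and 0.02, 0.07 and 0.07 after it.

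Of 51 Clec, Klr, Cd69 and Olr1 genes 10 were tested. At 12h 5 of the 10 rose and 1 fell, where over all genes 22.3% rose and 7.82% fell. At 48h 7 rose and none fell, or 9 rose after scaling. Over all genes 15.9% rose and 27.2% fell at 48h, or 24.5% and 22.0% after scaling. Clec4d, Clec4e, Clec4n, Clec12a and Olr1 were at or near 0 at 0h and passed the filter on mean TPM only through later libraries. They could be called higher but hardly lower, so neither the number of rises nor the lack of falls gives support. Clec7a stood at 0.95, 1.07 and 0.38 TPM in the uninduced libraries, 0.98, 0.91 and 0.82 after 1h, 8.61, 8.68 and 10.6 after 12h, and 37.5, 39.7 and 33.5 after 48h. Every library at 12h lay above every one at 0h and 1h, and every one at 48h above those at 12h. Its log2 change on the log2(TPM + 0.1) scale was 3.48 ± 0.29 (SE) at 12h and 5.46 ± 0.29 at 48h, with limma adjusted p = 5.84e-08 at 48h. Clec4d was listed at 0 in all 3 uninduced libraries, then at 0.18, 0 and 0.11 TPM (1h), 0.21, 0.46 and 0.44 (12h) and 5.47, 5.20 and 3.81 (48h). It rose by 2.18 at 12h and 5.61 at 48h on the log2 scale, with limma adjusted p = 6.28e-07 for the latter.

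Clec12a, an inhibitory receptor, was at 0 to 0.07 TPM at 0h and 5.67 to 6.97 TPM at 48h, a log2 change of 5.60. Clec2d, the ligand of Klrb1-type receptors, was at 0.11 to 0.67 and 14.6 to 20.1 TPM, a log2 change of 5.44. Clec4e was listed at 0 in every library at 0h and 1h and at 0.89 to 0.91 TPM at 48h, and Clec4n at 0 and at 0.16 to 1.08 TPM. Clec4a3 went from 0.04 to 0.49 TPM to 1.40 to 2.12 TPM, and its call was lost with a pseudocount of 0.01 (adjusted p = 0.0539, limma). The limma fit called all 5 of these higher at 48h. For each of them the 48h libraries lay above all those at 0h.

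Olr1 and Cd69 had patterns of their own. Olr1 was listed at 0 at 0h, was at 0.21 to 0.94 TPM at 1h and 1.45 to 3.05 TPM at 12h, and was back at 0.03 to 0.26 TPM at 48h; it rose at 1h and 12h and did not pass at 48h (limma adjusted p = 0.127). Cd69 was at 11.5, 8.54 and 5.38 TPM at 0h, at 3.82 to 4.50 TPM at 12h and at 10.6 to 12.1 TPM at 48h. After 1h, when its bait had the most contacts, Cd69 was not called without scaling and was called lower with median-of-ratios scaling. It fell at 12h by 0.98 on the log2 scale (limma adjusted p = 0.0123), and at 48h its change of 0.46 passed only after scaling, where it was 0.87. All 27 Klr genes were too low to test, and 22 of them were listed at 0 in every library.

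**Figure D5:**
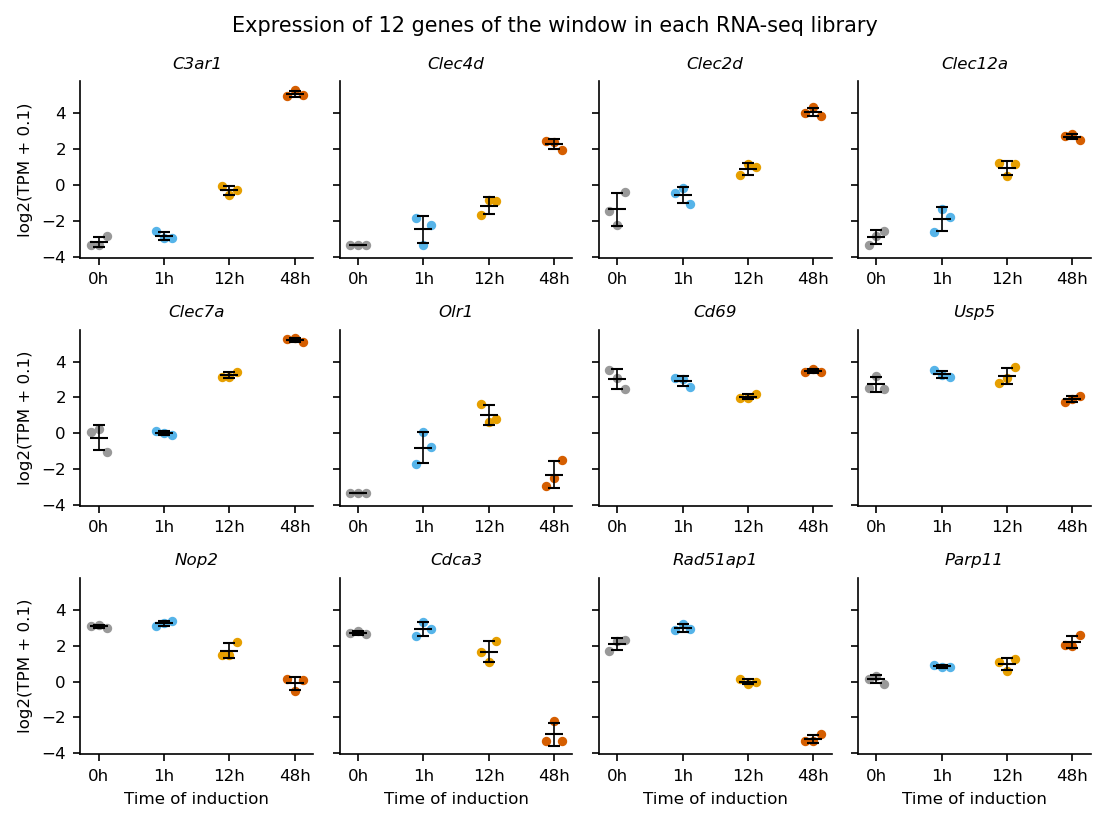
Expression as log2(TPM + 0.1) of 12 genes of the window in each of the 12 libraries, by time of induction; points are libraries, and the bar and whiskers are the mean and SD of 3 libraries. Clec7a, Clec4d, Clec12a, Clec2d and C3ar1 are highest at 48h in every library, Olr1 peaks at 12h, and Cdca3, Rad51ap1 and Nop2 are lowest at 48h.

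At the Clec4 flank, C3ar1 was at 0, 0 and 0.04 TPM at 0h and at 31.7, 39.1 and 32.4 TPM at 48h, a log2 change of 8.26 (limma adjusted p = 1.36e-09). Near 0 at 0h, C3ar1 passed the filter on mean TPM only through induced libraries and could hardly be called lower. The size of its log2 change depends on the pseudocount of 0.1. Apobec1, an RNA-editing deaminase, rose by 4.11 on the log2 scale, Necap1 by 1.79 and the transcription factor gene Foxj2 by 1.32. Slc2a3, a glucose transporter gene, had a log2 change of -1.04 that did not pass after scaling (-0.67, limma adjusted p = 0.108). The Apobec1 bait thus had 18 contacts at 0h and 3 at 48h while Apobec1 RNA was at 1.08 to 1.36 and 21.1 to 23.5 TPM.

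In the Ptpn6 to Vwf list 22 of 30 genes were tested, and 1 rose and 9 fell at 48h, or 5 rose and 6 fell after scaling. These are 4.55% and 40.9% of the tested members, or 22.7% and 27.3% after scaling, where over all genes 15.9% and 27.2% were called, or 24.5% and 22.0% after scaling. Those that fell under both scalings were Nop2, Ncapd2, Emg1, Phb2, Cops7a and Chd4, with log2 changes from -4.68 for the condensin gene Ncapd2 to -0.97 for Chd4, and Eno2, neuronal enolase, rose by 3.00. Nop2 went from 8.44, 8.74 and 7.75 TPM to 0.99, 0.60 and 0.95 TPM. Tpi1, Lpcat3 and Usp5 had changes of -0.90, -0.51 and -0.81, each lost after scaling. Gnb3, whose bait had 55 contacts at 0h, and Cd4, with 37 at the larger of its baits, were at 0.09 TPM or less in every library. Ptpn6 (SHP-1, a phosphatase of immune receptor signalling) fell at 1h, from 17.3, 21.2 and 18.6 TPM to 6.94, 8.89 and 8.73 TPM. Of genes outside the lists and chosen after their values were seen, Cdca3 was at 6.33, 7.03 and 6.15 TPM at 0h and 0, 0.12 and 0 TPM at 48h, and Rad51ap1, a DNA repair gene, was at 3.16, 4.69 and 4.91 and 0, 0 and 0.03 TPM. In the Ccnd2 to Foxm1 list 1 of 6 tested genes rose at 48h and 2 fell (16.7% and 33.3%, beside 15.9% and 27.2% over all genes). The gene that rose was Parp11, from 0.82 to 1.15 TPM to 3.90 to 5.90 TPM, and those that fell were Foxm1 with a log2 change of -3.89 and Fkbp4, a heat shock protein partner, with -3.39. Ccnd2, whose bait had 78 contacts at 48h, was at 0.27 TPM or less in every library.

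Contacts and expression were set side by side for the 74 window genes that were tested and had a bait. Calls of expression here are those without scaling, and the counts were not made with the scaled calls. Of 17 that rose at 48h, 10 had more contacts at 48h and 7 fewer, and of 20 that fell, 4 had more and 16 fewer. Of the 37 that did not pass, 6 had more and 30 fewer, so the share with fewer was 81.1% among these and 80.0% among those that fell. Over all genes with a bait, 52.4% of those that rose had more contacts and 37.9% fewer, 32.6% and 56.7% of those that fell, and 40.8% and 47.1% of those that did not pass. Inside the Ptpn6 to Vwf block, all 3 that rose and all 13 that fell had fewer contacts, as did 25 of 26 that did not pass. Outside it, 10 of 14 that rose and 4 of 7 that fell had more. Of the 11 there that did not pass, 5 had more and 5 fewer. Genes of 1 bait share its contacts, so these counts are a description.

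The density of the C/EBP-type pattern differed little between partners kept, gained and no longer listed. Partner fragments of lectin and Klr baits held 4.97 matches per 10 kb where listed at 0h and 48h, 4.76 where new at 48h and 4.94 where not listed at 48h. For Necap1, Gm5316 and the Clec4 baits the densities were 3.96, 4.44 and 4.47. The share of their partner fragments with any match differed more, at 18 of 19, 46 of 71 and 12 of 15. Median lengths of these fragments were 3755, 3159 and 6023 bases, and a longer fragment has more room for a match. For the lectin and Klr baits the shares were 73.7%, 71.4% and 69.6%, and for the Ptpn6 to Vwf baits 65.5%, 62.0% and 62.9%. Partners of the Ptpn6 to Vwf baits held 2.76, 3.11 and 2.87, at a GC content of 48.1 to 48.7%, against 40.3 to 40.7% for partners of the lectin and Klr baits. All bases of the window held 4.61 per 10 kb at 43.5% GC. A match is a run of letters and was not shown to bind the factor.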

How the data were processed

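The capture Hi-C pairs were made by the authors with HiCUP and CHiCAGO (score threshold 5, mm10), 2 replicates merged per time. The deposited 0h list holds a score per pair (lowest 5), and the deposited 1h, 12h and 48h lists hold whole numbers (lowest 2), taken here as read counts although no label names the unit. Pairs given in both directions were counted as 1, all 736 fragments of the window ended at HindIII sites of GRCm38, and read totals of the capture libraries were not used here. A contact was assigned to the stretch of its bait. Ratios of values were divided by the median ratio of all pairs in both lists (48h to 1h 0.882, 48h to 12h 1.18). Deposited RNA values are TPM, made by the authors with Trim Galore 0.6.2, HISAT2 2.1.0 and RSEM, and keep no depth. They were tested with limma 3.58.1 (R 4.3.3) on log2(TPM + 0.1), all 12 libraries in 1 model with a trend, 16415 genes of mean TPM at least 0.1, Benjamini-Hochberg over all of them, adjusted p under 0.05. Each time has 3 libraries, and p-values measure the spread between these. On simulated data with 200 genes changed by 2 on the log2 scale, the 48h against 0h fit of 16415 genes recovered 86% and called 13 others. The changed genes were drawn from those above about 1 TPM, with normal noise, so the recovery does not cover genes near 0. Genes with full statistics were members of the lists of each stretch, at most 30, ordered by adjusted p at 48h; baits were all lectin and Klr baits plus the 3 with most contacts per stretch; pairs were the 3 of highest 0h score and of highest 48h value per stretch and those to other chromosomes, and the further pairs of these baits and Apobec1 were chosen after their values were seen. The window, its stretches and the gene lists were chosen with earlier results of these data known. The summed level of the Pre-B marker list is not reported here. Gene positions are from GENCODE M21 and promoters from RefSeq. Alternatives were pseudocounts of 1 and 0.01, other filters and scalings, a replicate block, leaving out each library, contacts matched within 10 kb, a 0h score of at least 10, no scaling of values, values of at least 5, and the window without the Ptpn6 to Vwf block (the last 3 chosen after seeing the data). Python 3.11.15, pandas 2.3.3, scipy 1.17.1 and matplotlib 3.10.9 were used.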

Additional observations from a re-analysis of the deposited data

How the results depend on the processing

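Contact counts depended on the Ptpn6 to Vwf block and on strictness at 0h. Without the Ptpn6 to Vwf block the window held 813, 820 and 739 contacts at 0h, 1h and 12h and 932 at 48h, more than at 0h. With a 0h score of at least 10, 445 contacts were left at 0h, of which 90.3%, 85.4% and 80.0% were listed at 1h, 12h and 48h. The same shares over whole lists are not given, so these cannot be read as particular to the window. Counting a contact as shared when the other fragment lay within 10 kb gave 88.0%, 78.4% and 73.8% (82.0%, 78.0% and 77.0% over whole lists). Without scaling, 22 values were at least 2-fold higher and 39 lower at 48h than at 1h, and 60 higher and 3 lower than at 12h. Counts of window genes moved most at 1h. The 17 higher at 1h became 10 with mean TPM of at least 1, 1 with median-of-ratios scaling or quantile normalization, 11 beyond a log2 change of 1 and 3 beyond 2. The 2 lower at 1h became 4 with pseudocount 1, 8 with median-of-ratios scaling, 6 with quantile normalization, and 1 with pseudocount 0.01, no filter, mean TPM of at least 1, the 6 libraries compared alone or a log2 change beyond 2. At 12h, 9 rose and 1 fell beyond a log2 change of 2, and median-of-ratios scaling gave 15 lower. At 48h that scaling gave 31 higher, and 11 fell beyond a log2 change of 2. The causes were not tested. Leaving out 1 library gave 9 to 20 higher and 1 to 2 lower at 1h, 22 to 30 and 5 to 10 at 12h, and 17 to 23 and 16 to 25 at 48h. The 9 higher at 1h came without replicate 1 or replicate 2 at 1h (10 without replicate 2 at 0h), and the 5 lower at 12h without replicate 1 at 0h. With a replicate block the counts were 15 and 1 at 1h, 31 and 8 at 12h, and 20 and 22 at 48h. Deviations of libraries with the same replicate number had a median correlation of 0.0726 (18 pairs, -0.0123 to 0.257). For different numbers the median was -0.0523 (36 pairs, -0.181 to 0.11), and 7 of 12 libraries were closest to their own number. A weak pairing by replicate number can thus not be set aside. At 48h Slc2a3 lost its call in 12 alternatives, Lpcat3 and Usp5 in 5 each, Tpi1 in 3, Foxj2 and Clec4a3 in 1 each; Clec2i gained one in 5, Cd69 in 3 and Olr1 in 1.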
